A study of Mus musculus with 2 samples.

Results

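The genes described here are 10 transcription factors of the lung mesenchyme: the T-box factors Tbx2, Tbx4 and Tbx5, the forkhead factor Foxf1, the basic helix-loop-helix (bHLH) factors Tcf21, Twist1 and Twist2, the homeobox factors Prrx1 and Meox2, and the zinc-finger factor Gli1. They were chosen by symbol from the 27998 genes listed in both libraries, and all 10 symbols were found. The data are 2 droplet single-cell RNA libraries of cultured wild-type C57BL/6 mouse lung fibroblasts, 1 control and 1 stimulated, each holding 3′ ends of mRNA counted by unique molecular identifiers (UMIs). Per the labels, whole lung cell suspensions were plated, cells were grown in medium with 10% serum, or with 1% ITS+3 supplement for a lipofibroblast-like state, and at passage 3 were stimulated for 14 days with rosiglitazone (10 μM), SB4315442 (1 μM), rhBMP4 (4 μM) or a combination, while control cells from the same lung received vehicle. The labels do not say which of these agents, or which medium, the stimulated library received. Since each group is 1 library, the conditions cannot be tested against each other: folds are given with exact conditional Poisson 95% intervals and shares of cells with exact binomial (Clopper-Pearson) 95% intervals, which cover counting error only.

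As background, the lung forms where epithelial buds grow into mesenchyme, and these factors act on the mesenchymal side. Tbx4 and Tbx5 are known for promoting Fgf10 expression there, Fgf10 being the growth factor that draws the epithelial buds outward, and Tbx2 together with its close relative Tbx3 is known for keeping the embryonic lung growing. Hedgehog ligand from the epithelium raises Gli1 and Foxf1 in the mesenchyme, Tcf21 marks mesenchymal progenitors and is used as a marker of lipofibroblasts, and Twist1, Twist2 and Prrx1 are general factors of mesenchymal identity. Twist and Tcf21 proteins bind DNA as dimers with E proteins (Tcf3, Tcf4, Tcf12), and the Id proteins block such dimers.

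RefSeq promoter windows of 250 bases before the gene start (build GRCm38.p6) were at hand for 6 of the 10 genes. Those of Tcf21, Tbx4, Twist1 and Twist2 are shown, because these genes stand for the main patterns in the data: a gene with a far lower level in the stimulated library, a gene concentrated in a small group of cells, and a pair of paralogs that differed alike between the libraries. Each is written 5′ to 3′ on the gene's own strand. Capitals mark matches, on either strand, to the E-box CANNTG, the T-box element GGTGTGA, the TATA box TATAAA and the CCAAT box.
Tcf21, chr10:22820144-22820393, minus strand: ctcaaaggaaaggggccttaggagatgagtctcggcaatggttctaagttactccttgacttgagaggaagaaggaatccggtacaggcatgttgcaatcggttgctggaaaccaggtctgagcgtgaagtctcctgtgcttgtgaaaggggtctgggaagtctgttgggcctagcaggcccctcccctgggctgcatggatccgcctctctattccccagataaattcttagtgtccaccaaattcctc
Tbx4, chr11:85896515-85896764, plus strand: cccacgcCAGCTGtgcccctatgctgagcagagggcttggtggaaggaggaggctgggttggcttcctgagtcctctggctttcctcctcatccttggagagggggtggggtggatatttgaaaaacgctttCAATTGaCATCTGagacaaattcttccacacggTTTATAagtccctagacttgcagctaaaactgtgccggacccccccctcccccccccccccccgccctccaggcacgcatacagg
Twist1, chr12:33957421-33957670, plus strand: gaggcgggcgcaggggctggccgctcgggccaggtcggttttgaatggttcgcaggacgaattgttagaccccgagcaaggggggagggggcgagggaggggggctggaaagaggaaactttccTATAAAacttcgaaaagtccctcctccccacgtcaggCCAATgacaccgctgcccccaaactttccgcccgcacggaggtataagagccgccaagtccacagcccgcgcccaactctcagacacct
Twist2, chr1:91801211-91801460, plus strand: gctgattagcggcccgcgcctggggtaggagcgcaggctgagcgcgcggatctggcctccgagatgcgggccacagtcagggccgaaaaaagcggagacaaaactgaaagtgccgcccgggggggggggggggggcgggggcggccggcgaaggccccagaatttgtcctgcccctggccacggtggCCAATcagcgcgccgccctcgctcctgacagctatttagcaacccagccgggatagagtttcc
Matches to these letters are a description and no measure of binding. The Tbx4 window held 3 E-box matches and 1 TATA box match, the Twist1 window 1 TATA box and 1 CCAAT box match, and the Twist2 window 1 CCAAT box match. The Tcf21 window, like that of Prrx1, held none of the 4 motifs, and the Meox2 window held 1 E-box and 1 TATA box match. Of all 32851 RefSeq promoter windows of this length, 66.2% held the E-box, 3.33% the T-box element, 12.4% the TATA box and 33.8% the CCAAT box, and no window of the 6 held the T-box element. The share of G and C was 52.4% in the Tcf21 window, equal to the median of all windows, and reached 62.4% in that of Twist1 and 68.8% in that of Twist2.

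The control library held 4703 kept cells and 88573140 UMIs, with a median of 19634 UMIs per cell, and the stimulated library held 7468 cells and 117193148 UMIs, with a median of 15379.5. Levels are counts per 1e+06 UMIs (CPM) summed over the kept cells of a library, so 1 CPM stands for 88.57 UMIs in the control and 117.2 in the other. The libraries shared 46 barcodes (0.978% of control and 0.616% of stimulated barcodes). Of 10 fibroblast markers, 8 were seen in most cells of each library, and clusters named fibroblast-like from listed markers held 3788 of the control and 6723 of the stimulated cells. Of macrophage-like cells the control library held 148 and the stimulated library 1, and of mesothelial-like cells 60 and 23. The summed level of 12 macrophage markers was 780 against 14.3 CPM, and that of 7 smooth muscle markers 6700 against 2230 CPM, with no marker of either list at 0 in either library.

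Of the 10 genes, 9 had a mean level of at least 1 CPM over the libraries, and Gli1 did not. Of these 9, Tcf21 and Foxf1 were lower in stimulated cells by 1.5-fold or more, none was higher by that much, and 7 were in between. The same mark was passed downward by 14.8% and upward by 9.81% of all 11700 genes at or above 1 CPM on average. Both genes were also more than 2-fold lower, as 7.50% of all genes were, and 4.53% were 2-fold higher or more. The median log2 fold of the 9 genes was 0.06, beside -0.06 over all these genes. Scaling by TMM (trimmed mean of M-values) instead of total UMIs added 0.10 to every log2 fold. Under it the genes past 1.5-fold split into 1432 lower and 1475 higher, against 1733 and 1148 by total UMIs, while Tcf21 and Foxf1 stayed the 2 called.

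**Figure D1:**
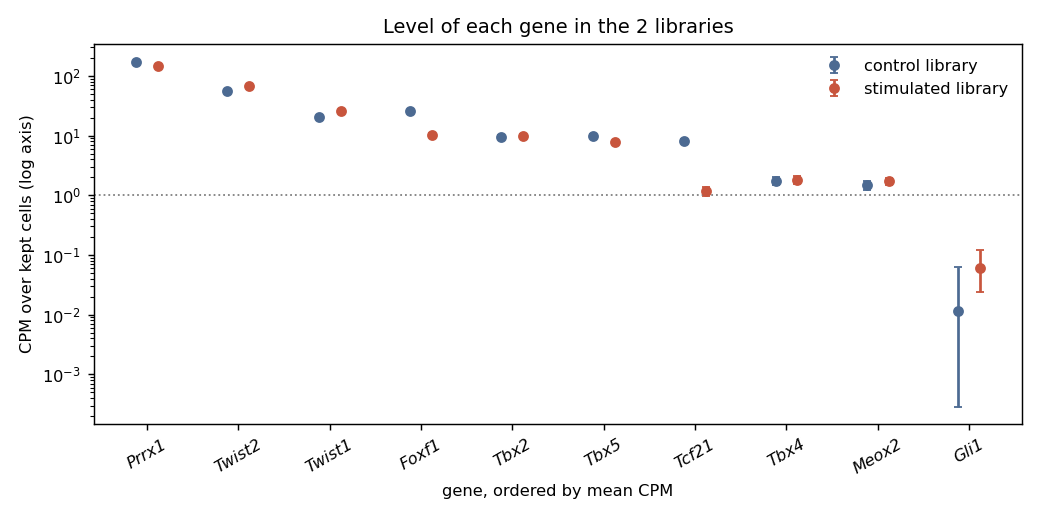
Level of each of the 10 genes (CPM, log axis) in the control and stimulated libraries, with exact Poisson 95% intervals and genes ordered by mean level. Tcf21 lies at 8.16 and 1.18 CPM and Foxf1 at 25.7 and 10.3 CPM, while Gli1 lies far below the dotted line at 1 CPM.

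Tcf21, the lipofibroblast-associated bHLH factor, had the largest difference among the 9 genes. It had 723 UMIs in the control library (8.16 CPM) and 138 in the stimulated library (1.18 CPM), a level 6.93-fold lower (95% interval 5.77 to 8.38). At equal depth, with each cell thinned at random to 5000 UMIs and 626 control and 760 stimulated cells below that depth left out, 3.51% of 4077 control cells (2.96 to 4.12) and 0.656% of 6708 stimulated cells (0.477 to 0.880) held a Tcf21 UMI. With another random draw the shares were 4.42% and 0.671%, the control share lying outside its interval above. Before thinning the shares were 11.6% and 1.74%. Tcf21 is itself 1 of the 8 genes listed as lipofibroblast markers, and the other 7 did not move one way. Plin2, the lipid droplet coat protein (41.1 and 71.5 CPM), Lpl, lipoprotein lipase (4.52 and 13.2 CPM), Pdgfra and Fgf10 were higher in the stimulated library. Gyg (178.3 and 67.3 CPM), Itga8 (12.1 and 3.99 CPM) and Limch1 (39.8 and 32.3 CPM) were lower.

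Foxf1, the forkhead factor of the lung and gut mesenchyme, was the other gene past the 1.5-fold mark. Its 2279 control UMIs (25.7 CPM) stood against 1204 stimulated UMIs (10.3 CPM), a 2.50-fold lower level (2.34 to 2.69). The share of cells with a UMI at 5000 UMIs was 12.2% (11.2 to 13.2) for control and 4.95% (4.44 to 5.50) for stimulated cells. Its paralog Foxf2 had 19.5 and 10.1 CPM, 1.93-fold lower (1.79 to 2.08). Fendrr, the long non-coding RNA transcribed next to Foxf1, had 5.22 and 3.79 CPM, 1.38-fold lower (1.21 to 1.57), and was looked up after the Foxf1 values were seen. Of the protein-coding genes on either side of Foxf1 in the RefSeq order, Irf8, a factor of macrophages and other blood cells, had 2.54 and 0.316 CPM, 8.05-fold lower (ratio 0.124, 0.0853 to 0.177), and Mthfsd had 23.4 and 20.4 CPM, a ratio of 0.872 (0.822 to 0.925). The macrophage markers, whose summed levels are given above, were also lower in the stimulated library, and their part in the Irf8 value was not tested. Beside Tcf21, Tbpl1 had 45 and 26.2 CPM, 1.72-fold lower, and Eya4 1.00 and 0.922 CPM.

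The T-box genes differed less. Tbx2 had 836 control UMIs (9.44 CPM) and 1174 stimulated UMIs (10.0 CPM), a ratio of 1.06 (0.970 to 1.16). Tbx4, the rarest of the 3, had 154 and 212 UMIs (1.74 and 1.81 CPM), a ratio of 1.04 (0.842 to 1.29), and its ratio ran from 0.921 to 1.29 over the alternative scalings and cell selections, so its direction is not settled. Tbx5 had 888 and 898 UMIs (10.0 and 7.66 CPM) and was 1.31-fold lower (1.19 to 1.44). The intervals of Tbx2 and Tbx4 include 1 and that of Tbx5 does not, and none of the 3 reached 1.5-fold. Tbx3, the neighbour of Tbx5 in the RefSeq order, went the other way with 7.51 and 9.34 CPM, a ratio of 1.24 (1.13 to 1.37). Tbx2 and Tbx4 are neighbours of each other there, between Bcas3 (6.55 and 6.40 CPM) and Brip1 (2.77 and 4.26 CPM).

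The Twist genes were both slightly higher in the stimulated library. Twist1 had 1806 and 3008 UMIs (20.4 and 25.7 CPM), a ratio of 1.26 (1.19 to 1.34). Twist2 had 4955 and 8055 UMIs (55.9 and 68.7 CPM), a ratio of 1.23 (1.19 to 1.27). These ratios were nearly equal, with overlapping intervals, and stayed above 1 in all alternatives run (1.23 to 1.35 for Twist1 and 1.19 to 1.32 for Twist2). Prrx1, the most abundant of the 10 genes, had 15322 and 17094 UMIs (173.0 and 145.9 CPM) and was 1.19-fold lower (1.16 to 1.21). Meox2, a homeobox factor of mesoderm, had 130 and 200 UMIs (1.47 and 1.71 CPM), a ratio of 1.16 (0.928 to 1.46). The neighbours of Twist2, Asb1 and Hdac4, had ratios of 0.752 (0.677 to 0.834) and 0.850 (0.794 to 0.910), Gorab beside Prrx1 0.850 (0.778 to 0.928) and Hdac9 beside Twist1 1.04 (0.734 to 1.49).

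Gli1, whose transcription reports active hedgehog signalling, was close to absent. It had 1 UMI in the control library and 7 in the stimulated library (0.0113 and 0.0597 CPM), a ratio of 5.29 with an interval from 0.680 to 238, so no direction can be read. No thinned control cell of 4077 held one, which allows a share of up to 0.0736% taken as 3 counts over the total (the exact binomial interval reaches 0.0904%), and 3 of 6708 thinned stimulated cells did (0.0447%). UMIs from 3′ ends do not scale with transcript length, so levels are set beside each other within a library as a description. Other differences between genes in how well their ends are counted were not measured. In the control the order was Prrx1, Twist2, Foxf1, Twist1, Tbx5, Tbx2, Tcf21, Tbx4, Meox2 and Gli1, where Tbx5 and Tbx2, and Tbx4 and Meox2, had overlapping Poisson intervals. In the stimulated library Foxf1 stood beside Tbx2, with overlapping intervals, and Tcf21 stood below Tbx4 and Meox2, whose intervals again overlapped. A check of the last 400 bases of the transcripts found no 90-base window of any of the 10 genes in another gene with up to 2 mismatches, so reads shared with a paralog were not found for these genes.

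Shares of cells at equal depth gave a slightly different set from the folds of summed UMIs. Tcf21, Foxf1 and Prrx1 had a lower share in the stimulated library with intervals that did not overlap, and Twist1 and Twist2 a higher one, beside 28.8% and 18.5% of all 11700 genes. Twist1 was seen in 8.98% of control cells (8.12 to 9.90) and 12% of stimulated cells (11.2 to 12.8), Twist2 in 24.1% (22.8 to 25.4) and 28.6% (27.5 to 29.7), and Prrx1 in 52.5% (50.9 to 54.0) and 49.1% (47.9 to 50.3). Tbx2 was seen in 4.54% and 5.01%, Tbx5 in 4.10% and 3.46%, Tbx4 in 1.10% and 0.641% and Meox2 in 0.883% and 0.939%, with intervals that overlapped between the libraries. For Tbx5 this rests on the draw and the depth: with another random draw its shares were 4.59% and 3.46%, and at 10000 UMIs 9.86% and 7.43%, and in both cases the stimulated share was the lower one with no overlap. At 5000 UMIs 26.2% of control cells and 28.01% of stimulated cells held a UMI of none of the 10 genes, and the mean number of the genes seen per cell was 1.12 and 1.05. Before thinning, Foxf1 was seen in 33.2% of control and 14.02% of stimulated cells, Twist1 in 28.4% and 30.8%, Twist2 in 51.95% and 56.9%, Prrx1 in 78.4% and 77.5%, Tbx2 in 12.5% and 12.2%, Tbx5 in 15.95% and 10.8%, Tbx4 in 2.91% and 2.56% and Meox2 in 2.445% and 2.50%. A missing UMI at 5000 UMIs does not show that a cell lacks the gene.

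The control library's macrophage-like cells, which should lack these factors, were taken as a rough guide to stray signal. Their median depth before thinning was 10554 UMIs in all such cells, against 21294.5 in fibroblast-like control cells. At the same 5000 UMIs, 129 of them held Prrx1 in 13.2%, Twist2 in 6.20% and Tbx2, Tbx4, Foxf1 and Twist1 in 0.775% each, which is 1 cell. Tcf21, Tbx5, Gli1 and Meox2 were seen in 0 of 129, which allows up to 2.33% by the same 3 counts and 2.82% by the exact interval. The exact intervals of some shares overlapped those of this background: Tbx4, Meox2 and Gli1 in both libraries and Tcf21 in the stimulated one. So did the control share of Tbx2 (3.92 to 5.22, against 0.0196 to 4.24 in macrophage-like cells). The background rests on 129 cells of the control library alone, and its intervals are wide. Whether its UMIs came from free RNA or from cells sharing a barcode was not tested. It need not equal the stray level in the deeper fibroblast-like cells. Such overlap therefore does not show that these shares are stray signal.

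**Figure D2:**
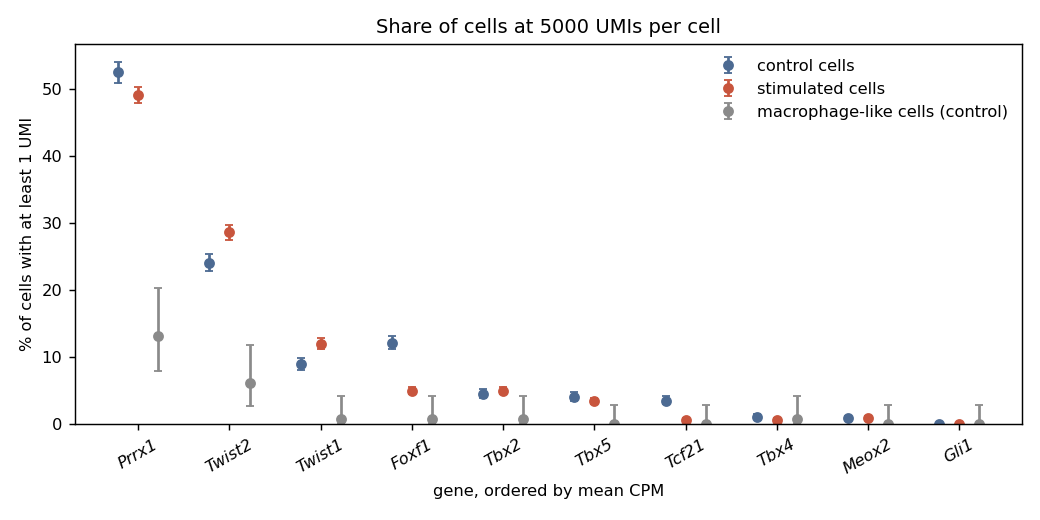
Share of cells (%) with at least 1 UMI of each gene after thinning to 5000 UMIs per cell, for control cells, stimulated cells and the macrophage-like cells of the control library, with exact binomial 95% intervals. Prrx1 is seen in 52.5% and 49.1% of cells, against 13.2% of macrophage-like cells, and Foxf1 in 12.2% and 4.95%.

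Clustering both libraries together, without the 3 of these genes (Tbx4, Tcf21, Meox2) that were among the variable genes, separated them by library, and only 1 fibroblast-like cluster held a sizeable number of cells of both. What follows describes levels in clusters and is no test, since clusters were drawn from the same cells. Tbx2 and Tbx4 were concentrated in a small cluster of each library that was led by Hsd3b6, a steroid dehydrogenase gene. In the control this was 389 cells holding 8.97% of the UMIs of fibroblast-like cells, with Cxcl14 and the granzyme genes Gzmd and Gzme among its leading genes. Its stimulated counterpart was 541 cells holding 8.01%, with Des, Limch1 and Gzme leading beside Hsd3b6. Hsd3b6 itself stood at 208 CPM in the control cluster and 75.1 CPM in the stimulated cluster.

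Tbx2 reached 45 CPM in the control cluster against 6.17 CPM in all other fibroblast-like control cells, 7.29-fold higher (6.32 to 8.41). In the stimulated library it reached 47.9 against 6.81 CPM, 7.03-fold higher (6.23 to 7.93). Tbx4 reached 10.5 against 0.954 CPM in the control, 11-fold higher (7.88 to 15.4), and 12.6 against 0.880 CPM in the stimulated library, 14.3-fold higher (10.8 to 19.0). These clusters thus held 52.0% and 55.5% of all Tbx4 UMIs of fibroblast-like cells, and 41.8% and 38.0% of those of Tbx2. At 10000 UMIs per cell a Tbx4 UMI was seen in 10.1% of 358 cells of the control cluster (7.14 to 13.6) and in 1.02% of the other 3416 control cells, and in 11.8% of 501 cells of the stimulated cluster (9.09 to 14.9) and 0.847% of the other 5787.

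The other genes took different sides of the same line. Tbx5 was 2.42-fold higher (2.03 to 2.86) in the control cluster, at 22.6 CPM, and 1.49-fold higher (1.20 to 1.83) in the stimulated cluster, at 11.1 CPM. Meox2 was 2.44-fold (1.51 to 3.80) and 3.25-fold (2.26 to 4.59) higher. Twist1 was 3.24-fold (2.45 to 4.37) and 1.96-fold (1.64 to 2.37) lower, and Twist2 3.36-fold (2.84 to 4.02) and 2.37-fold (2.10 to 2.67) lower. Tcf21 was 3.19-fold lower (2.07 to 5.18) in the control cluster, with 21 UMIs, and had 1 UMI in the stimulated cluster, a ratio of 0.0845 (0.00212 to 0.479) to the other fibroblast-like cells. Prrx1 differed least, 1.14-fold (1.08 to 1.21) and 1.19-fold (1.12 to 1.27) lower, and Foxf1 was 1.15-fold (0.999 to 1.32) and 1.61-fold (1.35 to 1.92) higher.

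Some genes beyond the 10 were looked up in these clusters after the pattern had been seen. Fgf10 stood at 20 CPM in the control cluster and 20.3 CPM in the stimulated cluster, against 5.49 and 6.98 CPM over the whole libraries. Bmp4, a growth factor of the lung mesenchyme, stood at 50 and 4.67 CPM, against 11.1 and 0.742 CPM. Of the smooth muscle markers, Des, Myh11 and Acta2 were looked up by cluster. Des, the intermediate filament of muscle, stood at 348 and 1080 CPM, and at 868 CPM in control mesothelial-like cells. Myh11, the smooth muscle myosin, was at 121 CPM in the control cluster but 1.63 CPM in the stimulated cluster. Acta2 stood at 4600 and 1490 CPM, against 3217 and 1097 CPM over the libraries. Other clusters exceeded this, with 5330 CPM in a control cluster led by Lum and 2820 CPM in a stimulated cluster led by Clu. Gas1, a hedgehog co-receptor, was low, at 8.47 and 15.3 CPM against 31.9 and 62.7 CPM over the libraries. The part of these other programmes in the T-box levels was not tested.

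**Figure D3:**
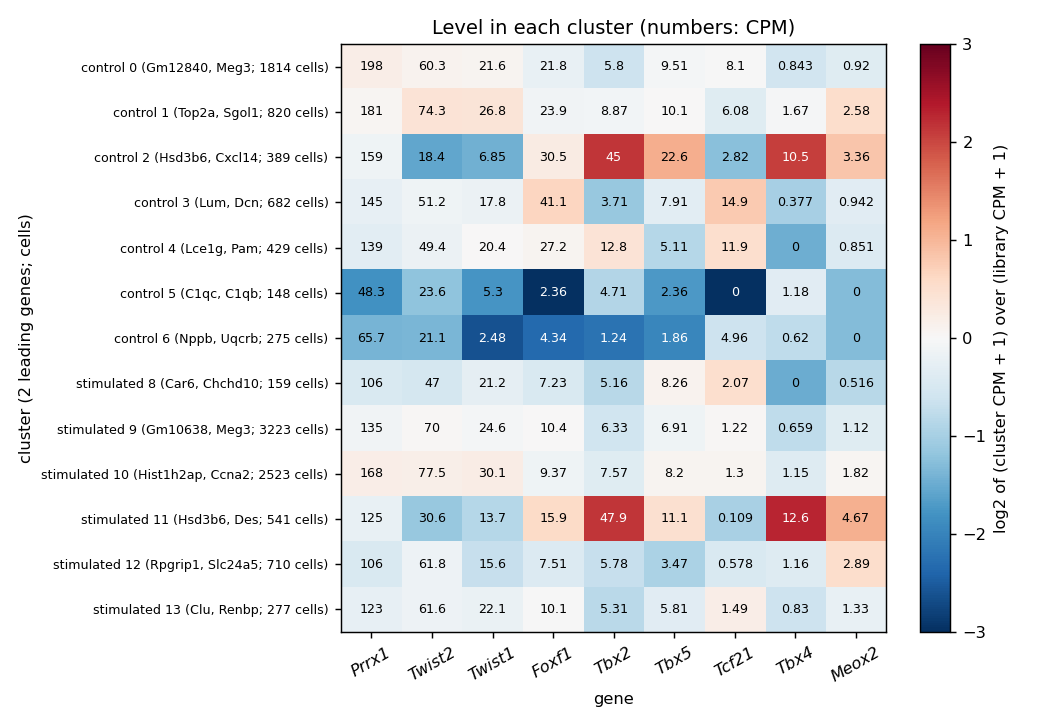
Level (CPM, printed) of the 9 genes above 1 CPM in each cluster and library with at least 100 cells; colour is the log2 ratio of (cluster CPM + 1) to (library CPM + 1), and rows give the library, cluster number, its 2 leading genes and its cells. The 2 rows led by Hsd3b6, control 2 and stimulated 11, are red for Tbx2 (45 and 47.9 CPM) and Tbx4 (10.5 and 12.6 CPM) and blue for Twist2 (18.4 and 30.6 CPM).

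Tcf21 and Foxf1 were highest together in another control cluster, 682 cells led by Lum and Dcn, the small proteoglycans of collagen matrix. Tcf21 stood at 14.9 CPM there (Poisson interval 13.1 to 17.0), against 8.10 CPM in the largest control cluster of 1814 cells, and Foxf1 at 41.1 (38.0 to 44.4) against 21.8 CPM. Over the 13 groups formed by clusters and libraries of at least 100 cells, the correlation of log2(CPM + 1) was 0.67 between Tcf21 and Foxf1, 0.81 between Tbx2 and Tbx4, 0.91 between Twist1 and Twist2 and -0.47 between Tbx4 and Twist2. These pairs were picked from all 45 by no set rule. Foxf1 had higher values with Prrx1 (0.82) and Tbx5 (0.72) than with Tcf21. The other pairs of a T-box gene with a Twist gene ran from -0.25 (Tbx4 with Twist1) to 0.42 (Tbx5 with Twist1). The 13 groups share libraries and depth, so the correlations only describe them. Mesothelial-like cells set the Twist genes apart from each other: Twist1 was at 36.8 CPM in the 60 control cells and 24.6 CPM in the 23 stimulated cells, while Twist2 was at 7.89 and 6.14 CPM, on 9 and 3 UMIs.

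By the same measure, the genes whose levels over the 13 groups were most like each of the 10 genes were named by rule as the top 3 of 8787 genes. For Tbx2 they were Btbd3, Npnt and Peg3 (0.94, 0.93 and 0.93), and Peg3 also led for Tbx4 (0.91), followed by Mcpt8 and Hsph1. For Twist2 they were Gas1, Exoc3l4 and Barx1 (0.94, 0.93 and 0.92), and for Twist1 Ephb2, Gata6 and Ebf1 (0.94, 0.94 and 0.93). For Tcf21 they were Pdha1, Foxp2 and Cdon (0.95, 0.94 and 0.89), and for Foxf1 Fkbp10, Serpinh1 and Bmpr1b (0.98, 0.96 and 0.94). For Tbx5 they were Mex3a, Ppp2r5e and Nhlrc2, for Prrx1 Gpr173, Ckap4 and Adgra3, and for Meox2 Ptk7, Cirbp and Smug1. With 13 groups and so many genes, high values are easily found, and nothing is read from them about function.

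Each of 4 fibroblast-like control clusters was then matched to the stimulated cluster with the most similar profile over 8781 genes. The matched pairs were the largest clusters (0.78) and the cycling clusters led by Top2a and Hist1h2ap (0.84). The others were the Hsd3b6 clusters (0.61) and the Lum-led control cluster with a Clu-led stimulated one (0.79). Some genes differed greatly within pairs: Lum stood at 64.8 CPM in the Lum-led cluster and 0.166 CPM in its match. In the Hsd3b6 pair Myh11 stood at 121 and 1.63 CPM. Both genes were also lower over the whole stimulated library. Whether paired clusters are the same kind of cell was not tested. Tcf21 was lower in the stimulated cluster of all 4 pairs, with ratios of 0.150 (0.112 to 0.198), 0.214 (0.155 to 0.293), 0.0385 (0.000931 to 0.239, on 21 and 1 UMIs) and 0.1 (0.0452 to 0.193). Foxf1 was lower in all 4 as well, with ratios of 0.475, 0.392, 0.520 and 0.247. In fibroblast-like cells alone, without the macrophage-like and mesothelial-like ones, the ratios were 0.141 for Tcf21 and 0.384 for Foxf1, next to 0.144 and 0.399 over all kept cells.

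The small differences of the other genes were less even over the pairs. Twist1 and Twist2 were 2-fold (1.43 to 2.82) and 1.66-fold (1.35 to 2.06) higher in the stimulated Hsd3b6 cluster than in the control one, but 1.12-fold and 1.04-fold in the cycling pair. Tbx5 was lowest in the Hsd3b6 pair, at a ratio of 0.491 (0.380 to 0.631), against 0.727, 0.809 and 0.734 in the other pairs. Tbx2 and Tbx4 had ratios of 1.06 (0.921 to 1.23) and 1.20 (0.895 to 1.62) in the Hsd3b6 pair. Prrx1 was lowest in the largest clusters, at 0.685 (0.663 to 0.708), and 0.927 in the cycling pair.

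**Figure D4:**
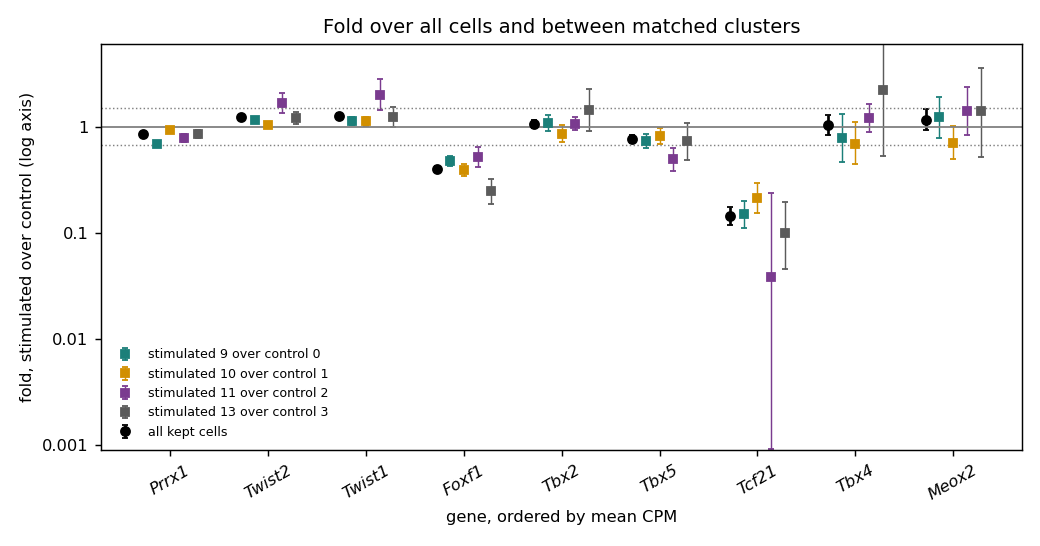
Ratio of stimulated to control level (log axis) for each gene over all kept cells (black) and for 4 matched pairs of fibroblast-like clusters (coloured squares), with exact conditional Poisson 95% intervals; dotted lines mark 1.5-fold either way. All Tcf21 and Foxf1 squares lie below the lower line, and those of the Twist genes lie at or above 1.

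Cycling was checked beside these levels. At least 5 UMIs of 12 cycling genes were held by 1326 of 4703 control cells and 3198 of 7468 stimulated cells, called cycling here. This mark was set on unthinned counts, so it depends on a cell's depth as well as on cycling. Twist2 was somewhat higher in cycling cells, at 65.1 against 51 CPM in the control and 73.7 against 63.6 CPM in the stimulated library. Twist1 followed it, at 24.1 against 18.4 CPM and 28.1 against 23.1 CPM. Tcf21 was at 6.30 against 9.18 CPM in the control library and 1.23 against 1.12 CPM in the stimulated one. In the cells below that mark of 5 UMIs the libraries' Tcf21 levels were thus 9.18 and 1.12 CPM, and their Foxf1 levels 27.1 and 10.5 CPM.

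Co-detection was measured as the number of cells with UMIs of both genes of a pair, divided by the number that the product of the 2 shares gives. At 5000 UMIs, 26 of 45 pairs for control and 24 for stimulated cells had a product of at least 5 cells. In the control, Tbx2 with Tbx5 (14 cells against 7.58, ratio 1.85, 1.01 to 3.10) and Tcf21 with Foxf1 (28 against 17.4, 1.61, 1.07 to 2.32) reached 1.5, and Tcf21 with Tbx2 (0.616) and with Tbx5 (0.512) lay at or below 1/1.5. Among stimulated cells no pair reached 1.5, and Tbx4 with Twist2 (0.569) lay at or below 1/1.5. Among all gene pairs above these limits, 2.85% for control and 2.13% for stimulated cells reached 1.5, and 4.50% and 4.11% lay at or below 1/1.5. With another random draw of UMIs the control count was 0, so single pairs at this depth are not read further.

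At 10000 UMIs per cell, which 3774 control and 6288 stimulated cells reached, the pair that stood out in both libraries was Tbx2 with Tbx4. Both were seen in 21 control cells against 5.96 from the product, a ratio of 3.52 (2.18 to 5.37), and in 34 stimulated cells against 8.93, a ratio of 3.81 (2.64 to 5.31). Averaged over all possible draws the ratios were 4.02 and 3.84. Of all gene pairs at this depth, 1.67% for control and 1.13% for stimulated cells reached 1.5. Tbx4 with Tbx5 had 2.14 (1.20 to 3.53) for control and 1.37 (0.685 to 2.45) for stimulated cells, and averaged over draws 1.98 and 1.66, so that it reached 1.5 in both libraries. Tbx2 with Tbx5 had 1.63 (1.22 to 2.14) and 1.14 (0.829 to 1.53). In the stimulated library Meox2 also reached 1.5 with Tbx2 (1.93, 1.08 to 3.18) and with Tbx5 (2.01, 1.10 to 3.36), but averaged over draws these were 1.49 and 1.47.

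Taken alone, the Hsd3b6 clusters gave a lower ratio for Tbx2 with Tbx4. Within the control cluster 15 cells held both against 13.0 from the product, a ratio of 1.16 (0.652 to 1.88), and within the stimulated cluster 25 against 20.8, 1.20 (0.782 to 1.75). Outside these clusters few cells were left: 6 control cells against 1.93, a ratio of 3.11 (1.14 to 6.77), and 9 stimulated cells against 2.90, a ratio of 3.10 (1.42 to 5.88). Both products are under the limit of 5 cells, so these 2 ratios count for no call.

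At 10000 UMIs all 6 pairs of a T-box gene with a Twist gene had ratios under 1 in both libraries. This grouping was made after the values were seen, and the intervals of 3 control and 2 stimulated ratios lay wholly below 1. How many of all gene pairs lie under 1 was not counted, so this number has no background beside it. The pattern did not hold for every pair at 5000 UMIs. There Tbx4 with Twist2 had 1.01 (0.507 to 1.81) for control cells. Tbx5 with Twist2 had 1.04 (0.754 to 1.41) for control and 1.03 (0.797 to 1.3) for stimulated cells. The remaining ratios of these pairs were under 1 there too. At 10000 UMIs Tbx2 with Twist1 had 0.715 (0.514 to 0.968) and 0.954 (0.787 to 1.14). Tbx2 with Twist2 had 97 control cells against 127, a ratio of 0.766 (0.623 to 0.932), and 190 stimulated cells against 243, 0.782 (0.676 to 0.900). Outside the Hsd3b6 clusters these ratios were 1.03 (0.817 to 1.27) and 0.922 (0.783 to 1.08). Tbx4 with Twist1 had 0.389 (0.126 to 0.907) for control and 0.691 (0.403 to 1.10) for stimulated cells, and Tbx4 with Twist2 had 0.705 (0.431 to 1.09) and 0.674 (0.467 to 0.941). Of all gene pairs, 2.77% and 2.24% lay at or below 1/1.5, a stricter mark than a ratio under 1. The paralogs Twist1 and Twist2 were seen together slightly more often than the product gives, in 315 cells against 273 (1.15, 1.04 to 1.28) and 726 against 669 (1.08, 1.01 to 1.16). Foxf1 stood near 1 with Prrx1 (0.983 and 0.988) and Twist2 (0.980 and 1.02). Tcf21 with Foxf1 had 1.24 (0.973 to 1.56) for control and 0.793 (0.291 to 1.73) for stimulated cells.

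**Figure D5:**
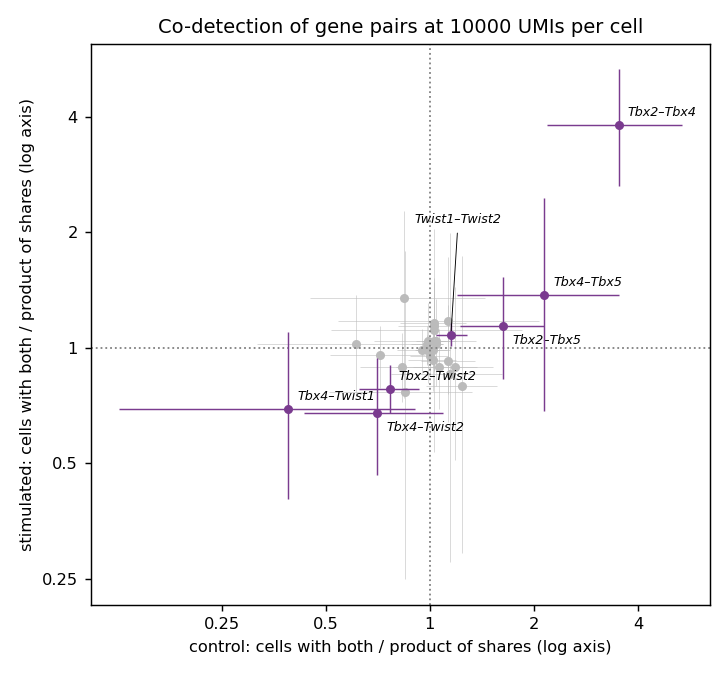
Co-detection ratio (cells with both genes over the product of their shares, log axes) at 10000 UMIs per cell. Control (x) and stimulated (y) libraries are shown for the 31 pairs with a product of at least 5 cells in both, and 7 pairs are named. Bars are exact binomial 95% intervals of the number of cells with both genes, with the product taken as fixed. Tbx2 with Tbx4 stands at 3.52 and 3.81, away from the cloud around 1.

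Genes seen more often in cells with a UMI of a given factor, in cells thinned to 5000 UMIs, were listed for each factor with at least 100 positive cells, and they are given as a description. In Tbx2-positive control cells the 3 highest ratios were those of Itga8 (17.8% against 4.62% of Tbx2-negative cells), Dkk2 (22.7% against 6.50%) and Limch1 (29.7% against 9.53%). In the stimulated library they were Limch1 (27.4% against 6.31%), Des (36.6% against 12.6%) and Peg3 (13.4% against 4.74%). In Tcf21-positive control cells they were Nkd2 (14.0% against 5.39%), Lum (15.4% against 5.97%) and Ankrd9 (11.2% against 4.83%), and in Foxf1-positive control cells Lum (13.1% against 5.36%), Tnfrsf11b (12.1% against 5.11%) and Wnt4 (9.27% against 4.83%). For Twist2 and Prrx1, which are seen in many cells, the highest ratio was 1.68. Too few stimulated cells held Tcf21 to draw such a list.

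The hedgehog pathway, whose output Gli1 reports, was partly measured. Of 14 genes 9 passed 1 CPM, of which 2 were at least 1.5-fold higher, 2 at least 1.5-fold lower and 5 neither. Of all genes at or above 1 CPM, 9.81% were that much higher and 14.8% lower. Gas1, a co-receptor, had 31.9 and 62.7 CPM, 1.97-fold higher (1.88 to 2.05), and Gli2, the main activator among the Gli factors, 2.87 and 5.39 CPM, 1.88-fold higher (1.62 to 2.18). The other co-receptors went the opposite way: Cdon had 7.63 and 2.65 CPM, 2.89-fold lower (2.52 to 3.31), and Boc 7.53 and 2.99 CPM, 2.52-fold lower (2.21 to 2.88). Smo, the signal transducer, had 20.8 and 22.6 CPM and Gli3, the main repressor among them, 16.9 and 20.2 CPM. The receptor Ptch1, itself a target of the pathway, had 3.22 and 2.15 CPM, 1.496-fold lower (1.26 to 1.78) and just short of the mark. No UMI of the ligand Shh was seen. Hhip, a hedgehog-binding inhibitor and target gene, had 1 control and 108 stimulated UMIs, a ratio of 81.6 (14.3 to 3253), with a mean below 1 CPM; it and Gli2, Boc and Ptch1 were named after their values were seen.

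The partners and inhibitors of the bHLH factors were all measured. The E proteins that pair with Twist and Tcf21 were not past 1.5-fold: Tcf3 had 42.4 and 56.1 CPM, a ratio of 1.32 (1.27 to 1.38), Tcf4 93.6 and 109.3 CPM, and Tcf12 37.2 and 34.6 CPM. Of the Id genes 3 of 4 were at least 1.5-fold lower, as were 14.8% of all genes at or above 1 CPM. Id4 had 9.48 and 0.811 CPM, 11.7-fold lower (9.45 to 14.6), Id2 81.5 and 13.7 CPM, 5.96-fold lower (5.64 to 6.29), and Id3, the most abundant, 558.7 and 355.7 CPM, 1.57-fold lower (1.55 to 1.59). Id1 had 84.7 and 79.01 CPM. With the 0.10 that TMM added to every log2 fold, Id3 would fall short of 1.5-fold. Id2 was named after its values were seen.

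Of 30 other mesenchymal transcription factors 26 passed 1 CPM, with 6 at least 1.5-fold higher, 6 lower and 14 neither, and a median log2 fold of 0.05. Ebf1, a factor of adipocyte and mesenchymal precursors, had the largest higher value, 47.3 and 108.0 CPM, 2.28-fold (2.21 to 2.37), and Foxf2 the largest lower value. Foxp1, the most abundant, had 260.6 and 172.3 CPM, 1.51-fold lower (1.48 to 1.54), while Nfix and Nr2f2 had ratios of 1.02 and 1.05. Of the signals made by lung mesenchyme 7 of 10 passed, with 2 higher and 2 lower. These counts are by total UMIs, by which 9.81% of all genes at or above 1 CPM were higher and 14.8% lower. With the 0.10 that TMM added to every log2 fold, Foxp1, Foxc1, Prrx2 and the signal Wnt5a would no longer count as lower. Snai1 would then count as higher. Foxc1, Prrx2, Wnt5a and Snai1 were named after their values were seen. Bmp4 was 15.03-fold lower (12.1 to 18.9), at 11.1 and 0.742 CPM, and Wnt2 2.68-fold higher (2.13 to 3.39), at 1.08 and 2.90 CPM. Pdgfra, the receptor that marks lipofibroblasts and alveolar fibroblasts, had 27.4 and 71.1 CPM, 2.60-fold higher (2.48 to 2.72), Fgf10 5.49 and 6.98 CPM, and the growth factors Fgf7 and Vegfd ratios of 0.988 and 1.13.

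General genes of the mesenchymal state, 7 of 9 above 1 CPM, had none higher and 4 at least 1.5-fold lower. The shares over all genes at or above 1 CPM were 9.81% higher and 14.8% lower. Vim, the intermediate filament of mesenchyme, had 1276 and 1447 CPM, Fn1, fibronectin, 1195 and 583.8 CPM, 2.05-fold lower (2.03 to 2.07), and Postn, a matrix protein of activated fibroblasts, 26.2 and 9.46 CPM, 2.77-fold lower. S100a4 had 992.2 and 791.3 CPM. Cdh1 and Epcam, which mark epithelium, were below 1 CPM in both. Of 15 transcription factors of other tissues (among them Nkx2-1, Sox10 and Myod1) none passed 1 CPM and 6 had no UMI in either library. Their highest mean was 0.548 CPM, above the 0.0355 CPM of Gli1. The lists were made with earlier results of these data known, so this is a description and no check of the name.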

How the data were processed

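Each deposited matrix holds raw UMI counts by gene and barcode, as the authors left them, without scaling. Cell Ranger 3.0.2 is named in the matrices, per the file headers, whereas Cell Ranger 1.3.1 and Seurat 3.0.0 stand in the submitters' processing notes. The build, the annotation and the choice of barcodes are not stated in what was used here. The kit reads 3′ ends from droplets, per the labels. The gene choice and the lists were made with earlier results of these data known.

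Barcodes with 500 genes or more and at most 20% mitochondrial UMIs were kept. Too few genes excluded 269 control and 212 stimulated barcodes, and mitochondrial content a further 44 and 18. Rules for named genes were: all 10 factors; from each list the 3 genes with the highest mean and the largest fold each way; the 3 top partners and most similar genes of each factor; and RefSeq neighbours. Cells were thinned without replacement to 5000 UMIs. Clusters came from scanpy 1.11.5 (2000 variable genes less 3 of the 10, 30 components, 15 neighbours, Leiden resolution 0.5) and were named from markers: at least 3 seen in 25% of cells and at least 2 among the 10 leading genes. Fibroblast-like clusters needed 3 fibroblast markers seen and no other leading type. A cluster whose median UMI count was below its library's median divided by 3, with no marker of its type among its leading genes, stayed unnamed. That Acta2 and Tagln do not count as leading for smooth muscle, and that the factors stay out of clustering, was settled after a first clustering. No doublet caller was run; leaving out the 5% of cells with the most UMIs was an alternative. TMM factors came from edgeR 4.0.16. The scripts were tested on simulated data.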

Additional observations from a re-analysis of the deposited data

How the results depend on the processing

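The count of genes at least 1.5-fold lower was 2 in all alternatives run except with a minimum mean of 5 CPM, where it was 1 because Tcf21 has a lower mean. The count at least 1.5-fold higher, 0, became 1 without cycling cells (Meox2, 1.58) and 1 with no filter on low counts (Gli1). The number with a higher share of cells, 2, became 1 at 2000 UMIs per cell and 1 when at least 2 UMIs were asked for; Twist2 was the gene left in each. The number with a lower share, 3, became 4 with another random draw and 4 at 10000 UMIs, by the addition of Tbx5. The number of pairs co-detected at 1.5 or more, 2 for control and 0 for stimulated cells, became 0 and 1 at 2000 UMIs, 0 and 1 with another random draw and, in the control, 1 averaged over all draws of 5000 UMIs. In the control it was 3 at 10000 UMIs and 3 averaged over draws at that depth, with Tcf21 and Foxf1 lost and Tbx4 with Tbx2 and with Tbx5 gained. For stimulated cells it became 3 at 10000 UMIs, 2 averaged over draws at that depth (Tbx4 with Tbx2 and with Tbx5) and 1 without the 5% of cells with the most UMIs. At 10000 UMIs without the Hsd3b6 clusters control cells gave 0 and stimulated cells 1. This last alternative, the averages over draws and the omission of the Hsd3b6 clusters were chosen after seeing the data; the cause of the other changes was not tested. Of the folds of single genes 79 stayed within counting error, 11 moved beyond it, and none at least 1.5-fold apart changed direction. Tbx4, at 1.04, did so: it was 0.921 as a mean of the cells' own shares and 0.949 without the Hsd3b6 clusters. Tcf21 kept ratios of 0.122 to 0.155 and Foxf1 0.384 to 0.429. Of the shares of cells 60 stayed within counting error and 60 moved, where other depths and asking for 2 UMIs shift shares by design. With another random draw at 5000 UMIs the control shares of Tcf21 (4.42%), Twist2 (22.3%) and Prrx1 (50.9%) moved. No paired analysis was possible because each group has 1 library, and for the same reason no library could be left out. Depth limits Gli1, Meox2 and Tbx4 most, with 1 and 7, 130 and 200, and 154 and 212 UMIs in the control and stimulated libraries.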

Other observations

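Some clusters could not be named. In the control library 275 cells led by Nppb and Uqcrb, with a median of 5201 UMIs, held Acta2 at 9740 CPM and low levels of most of the factors: Prrx1 at 65.7 CPM (53.8 to 79.5), Twist2 at 21.1 CPM (14.6 to 29.5), Twist1 at 2.48 CPM and Tbx2 at 1.24 CPM, on 4 and 2 UMIs. The shallowest clusters, 429 control cells and 710 stimulated cells with medians of 1816 and 1836 UMIs, held Prrx1 at 139 and 106 CPM and Twist2 at 49.4 and 61.8 CPM. Of a cluster led by Car6 and Chchd10, which also has Ddit3 and Trib3, known from the stress response, near the top, 78 cells came from the control and 159 from the stimulated library, and Foxf1 stood at 30.2 CPM (17.9 to 47.7) in the former and 7.23 CPM (3.95 to 12.1) in the latter. It was the fibroblast-like cluster that both libraries shared.

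At 10000 UMIs Tbx5 was seen in 20.4% of the cells of the control Hsd3b6 cluster (16.3 to 24.9) and in 10.4% of those of the stimulated one (7.85 to 13.4). Tbx2 was seen in 36.0% (31.1 to 41.2) and 35.3% (31.1 to 39.7) of the same cells.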
